A study of Mus musculus with 6 samples.

Results

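The 10 genes described here, Egr1, Egr2, Egr3, Fos, Fosb, Fosl2, Jun, Junb, Jund and Ier2, encode nuclear factors of the immediate early response, of which all but the more loosely related Ier2 are DNA-binding transcription factors. They were taken by name from the 55298 gene identifiers of the table, 1 identifier per symbol, and all 10 passed the filter on low values that left 18161 tested genes. The samples are cells captured from mouse brain with magnetic beads carrying an antibody against O4, a surface antigen of late oligodendrocyte precursors and oligodendrocytes, and they were not cultured before RNA extraction. Mice of the strain labelled c56Bl/6j had been immunised with MOG 35-55, a peptide of myelin oligodendrocyte glycoprotein that induces experimental autoimmune encephalomyelitis (EAE). The comparison mice received ovalbumin (OVA), and brains were taken when disease was maximal. The 6 EAE mice form 3 pools of 2 mice, and the 4 OVA mice form 3 samples, of which replicate 2 pools 2 mice and replicates 1 and 3 hold 1 mouse each. Age and sex are not given in the labels.

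Immediate early genes are switched on within minutes of a stimulus without new protein synthesis, mostly through MAP kinases that act on serum response factor, its ETS partners and CREB at their promoters. FOS and JUN proteins pair through leucine zippers into the AP-1 dimers, while the EGR proteins bind GC-rich sites through zinc fingers. In the nervous system these genes are known as markers of recent neuronal activity, and in isolated brain cells they are also known to be switched on by enzymatic or mechanical dissociation. EGR2, also called KROX20, is known for its requirement in myelination by Schwann cells of peripheral nerve, and it is also expressed in activated T cells and macrophages.

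The promoter stretches of Egr2 and Junb, the members with the largest differences between the groups, are shown beside those of Fos and Jun, which differed little. Each line gives the 250 bases before the transcription start on the gene's own strand, from RefSeq on GRCm38.p6. Capitals mark matches, on either strand, to the CArG box of serum response factor, to TGACG (the CRE half-site) or to TGACNTCA (a CRE-like site), and the last overlaps TGACG where N is G.
Egr2 (chr10:67537619-67537868, plus strand): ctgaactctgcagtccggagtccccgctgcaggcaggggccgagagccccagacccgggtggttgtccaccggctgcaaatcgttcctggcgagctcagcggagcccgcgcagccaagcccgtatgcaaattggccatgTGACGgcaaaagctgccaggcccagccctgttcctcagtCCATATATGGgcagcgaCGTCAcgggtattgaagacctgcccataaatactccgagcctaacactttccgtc
Junb (chr8:84978749-84978998, minus strand): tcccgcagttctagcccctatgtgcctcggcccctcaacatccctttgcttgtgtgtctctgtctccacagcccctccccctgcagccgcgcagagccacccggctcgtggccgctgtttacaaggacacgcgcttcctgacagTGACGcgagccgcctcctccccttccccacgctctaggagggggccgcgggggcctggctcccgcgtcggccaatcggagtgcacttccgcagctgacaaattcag
Fos (chr12:85473640-85473889, plus strand): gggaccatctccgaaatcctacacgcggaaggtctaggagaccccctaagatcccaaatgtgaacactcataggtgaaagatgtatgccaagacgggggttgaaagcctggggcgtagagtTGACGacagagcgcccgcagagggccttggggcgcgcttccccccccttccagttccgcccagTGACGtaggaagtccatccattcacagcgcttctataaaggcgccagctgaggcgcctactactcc
Jun (chr4:95052223-95052472, minus strand): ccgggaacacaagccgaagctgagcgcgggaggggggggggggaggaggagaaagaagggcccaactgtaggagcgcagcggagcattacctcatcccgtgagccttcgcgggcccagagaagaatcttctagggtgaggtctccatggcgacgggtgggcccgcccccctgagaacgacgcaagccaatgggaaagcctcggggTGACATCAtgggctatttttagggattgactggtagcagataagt

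Of these 4 stretches the Egr2 one, from 1 of 5 starts that RefSeq gives for that gene, holds a CArG box, at positions -72 to -63 counted from the start. It was chosen for display with its matches known. Of the 5 Egr2 stretches 4 hold a CArG box and 3 hold TGACG. The 3 with TGACG overlap in position and share the same CArG box and TGACG matches. The counts are therefore not of separate sites and cannot be set against the shares below. The stretch that starts at base 67535249, nearest the annotated gene start, holds none of the motifs searched. Among all 32851 RefSeq promoter stretches of this length, 1.47% hold a CArG box, 17.8% hold TGACG and 7.49% hold TGACNTCA. The Egr2 stretch also holds TGACG in each orientation, the Fos stretch holds it at 2 places and the Junb stretch at 1, while the Jun stretch holds TGACNTCA at positions -45 to -38. The zinc finger site of the EGR proteins, GCGNGGGCG, was found before Fosb and Fosl2 and stands in 4.7% of all stretches, and the AP-1 site TGANTCA was found before none of the 7 members with a stretch, against 6.75% of all stretches. Egr1, Egr3 and Ier2 have none shown here. Only the 250 bases before each start were searched. A stretch without a match, such as that of Fos for the CArG box, therefore does not show that the gene lacks the site. These matches describe letters in a window and not binding.

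Values are rlog values on the log2 scale, that is, regularised logarithms that the authors derived from read counts scaled for library size, so that a difference of 1 stands for 2-fold. The depth of the libraries is unknown, because the table gives no counts. The defining oligodendrocyte gene Mbp stood at 17.65 to 17.73 in EAE and 16.87 to 17.56 in OVA, and myelin gene Mog at 14.59 to 14.75 in EAE and 14.26 to 14.64 in OVA. Markers of other brain and blood cells were present as well, and none of those listed was at 0 in every sample. OVA replicate 3 stood apart through neutrophil granule genes, among others. Its summed neutrophil marker level was 15.14, against 12.53 to 13.03 in EAE and 12.58 as the lowest OVA value. Of the OVA samples it also had the highest sums of monocyte and macrophage (15.43), endothelial (16.57) and pericyte and smooth muscle markers (15.58). Its sum of mature oligodendrocyte markers (20.0) was the lowest of them. Xist, which coats the silenced X chromosome of females, stood at 13.50, 13.55 and 14.16 in EAE and at 7.39, 7.63 and 7.62 in OVA, and 4 of 4 Y-linked genes were lower in EAE with no overlap. The sexes behind the samples therefore differed in their mix, and sex and disease cannot be told apart for any gene here.

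Setting EAE beside OVA addresses how far these factors differ in O4-captured cells at maximal disease. Egr2 alone of the 10 members rose past the threshold, 2.55-fold, and the other 9 did not pass. Junb had the next largest difference, 1.67-fold, at an adjusted p just over the threshold. Fos, Jun and Egr1 differed by at most 0.22 on the log2 scale in either direction. The members therefore did not move together (the plot of values by sample).

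**Figure D1:**
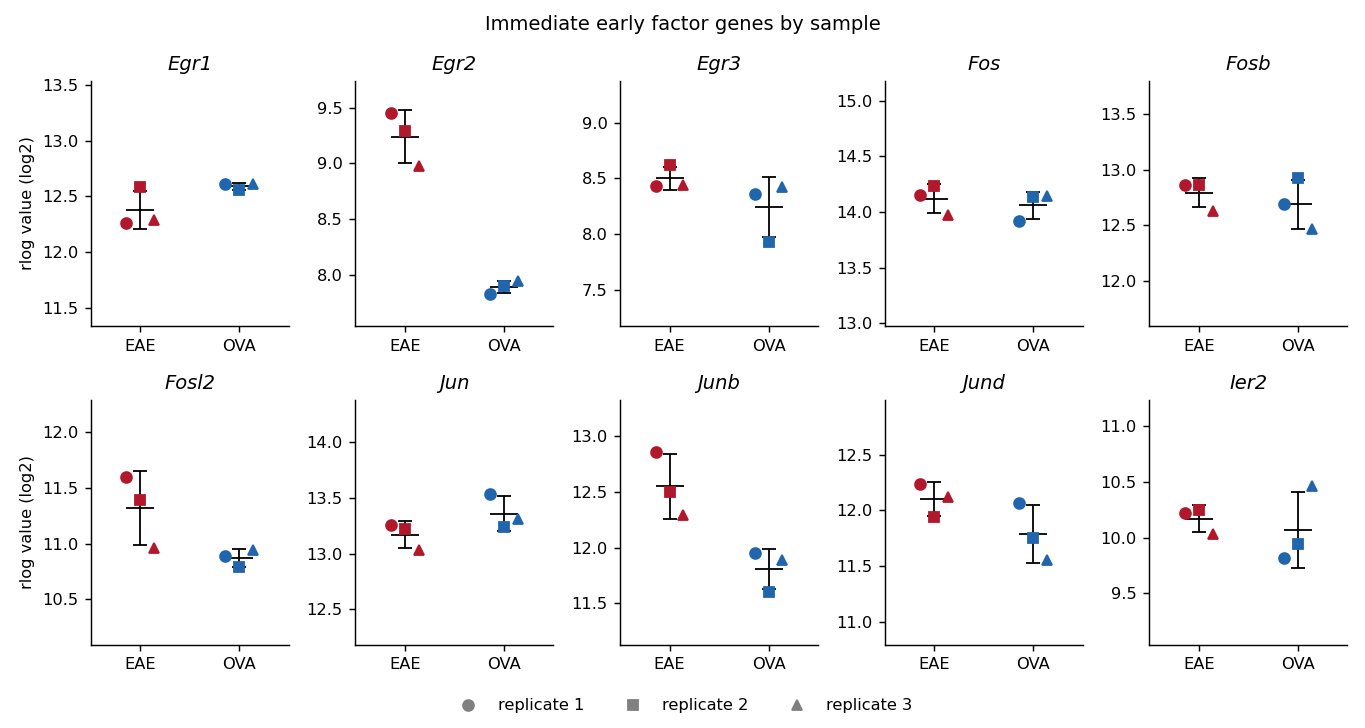
rlog values (log2 scale) of the 10 members in the 3 EAE and 3 OVA samples. Symbols mark the replicate, the horizontal bar the mean and the error bar the SD of 3 samples, and each panel spans the same range on the log2 scale. The Egr2 values of EAE (8.98 to 9.45) lie clear of those of OVA (7.83 to 7.94), the Junb values do so by a smaller gap, and the Fos values overlap.

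In all, 1 of the 10 members was called higher in EAE, where 1.72% of all tested genes were, and 0 were called lower, where 0.666% were. In either direction the share over all tested genes was 2.38%. The test was limma on all tested genes with Benjamini-Hochberg adjustment and a threshold of 0.05, and 3 members (Egr2, Junb and Fosl2) had an unadjusted p under 0.05, where 16.3% of all tested genes did. With 10 genes a single call carries little information on the group. Above 0 lay 8 members and below 0 lay 2, with a median difference of 0.18, whereas 49.3% of all tested genes lay above 0 and their median was -0.002. All 3 EAE values exceeded all 3 OVA values for 4 members, where 12.1% of all tested genes showed that pattern. The reverse held for 0 members and 10.8% of all tested genes, and the groups were apart in either direction for 22.8%. The 4 were Egr2, Junb, Egr3 and Fosl2, and for the last 2 the gap between the lowest EAE and the highest OVA value was only 0.01.

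**Figure D2:**
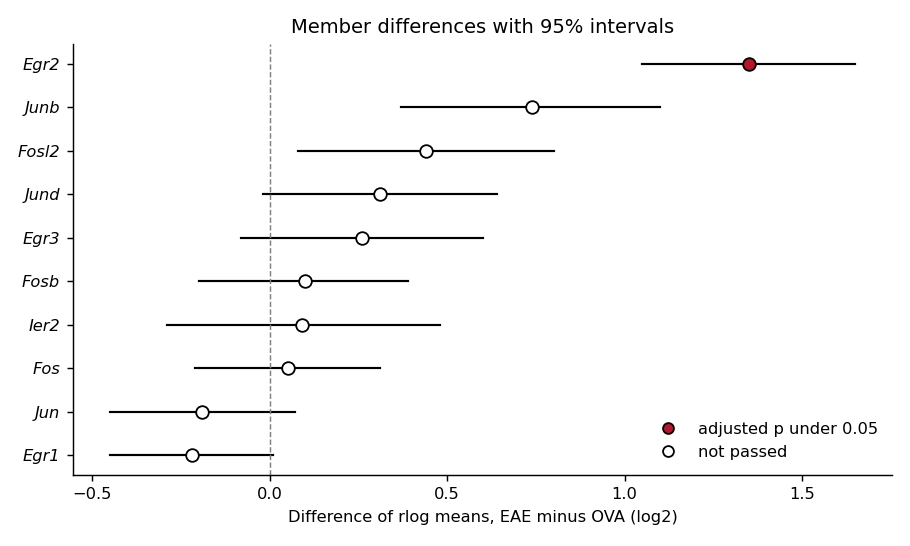
Difference of the group means (EAE minus OVA, log2 scale) for each member, with its 95% interval from limma. The filled point passed an adjusted p of 0.05. The interval of Egr2 runs from 1.05 to 1.65, and 7 of the 10 intervals include 0.

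Gene positions below are those of GENCODE M21 on GRCm38. Among the EGR genes, Egr2 (ENSMUSG00000037868.15, chromosome 10, 67535475 to 67542188) had rlog values of 9.45, 9.29 and 8.98 in the EAE pools, against 7.83, 7.90 and 7.94 in the OVA samples. Every EAE pool exceeded every OVA sample, by a gap of 1.04 where the OVA samples spanned 0.11. The means were 9.24 ± 0.24 in EAE and 7.89 ± 0.05 in OVA (SD, n = 3 each), a rise of 1.35 ± 0.13 (SE; limma adjusted p = 0.0057). Only 0.617% of the tested genes had a larger absolute difference, and the 95% interval of the fold ran from 2.07 to 3.14. With 1 sample left out, Egr2 passed in 4 of 6 cases. Leaving out EAE replicate 2 gave a difference of 1.33 and leaving out OVA replicate 2 one of 1.35, each just over the threshold (limma adjusted p = 0.0513 and 0.0511).

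Egr1 (ENSMUSG00000038418.7, chromosome 18, 34859823 to 34864984), the classic activity-induced zinc finger factor, had rlog values of 12.26, 12.58 and 12.29 in EAE, against 12.61, 12.56 and 12.61 in OVA. EAE replicates 1 and 3 lay below all OVA samples, and EAE replicate 2 lay among them. The difference was -0.22 ± 0.10 (SE; limma adjusted p = 0.329), with a 95% interval from -0.45 to 0.01. That interval leaves room for a decrease but not for an increase like that of Egr2.

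Egr3 (ENSMUSG00000033730.4, chromosome 14, 70077203 to 70082614), which in T cells acts with Egr2, had rlog values of 8.43, 8.62 and 8.44 in EAE, against 8.36, 7.93 and 8.42 in OVA. The low OVA replicate 2 set most of the difference of 0.26 ± 0.15 (SE; limma adjusted p = 0.433). Without that sample the difference was 0.10 (limma adjusted p = 0.704).

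Levels of EGR genes relative to each other within a sample restate these values in another form. Egr2 minus Egr1 was -2.81, -3.28 and -3.31 in the EAE pools, against -4.78, -4.66 and -4.67 in the OVA samples, as differences of rlog values that are not corrected for gene length. The gap between the 2 genes was thus 1.57 smaller in EAE, with no overlap between the groups. Egr2 minus Egr3 was 1.02, 0.67 and 0.54 in EAE, against -0.53, -0.03 and -0.48 in OVA (the plot of balance between family members). An exact permutation test of 3 samples against 3, two-sided, gave p = 0.1 for both, the smallest it allows, and 0.15 after adjustment over the 9 within-family pairs compared.

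**Figure D3:**
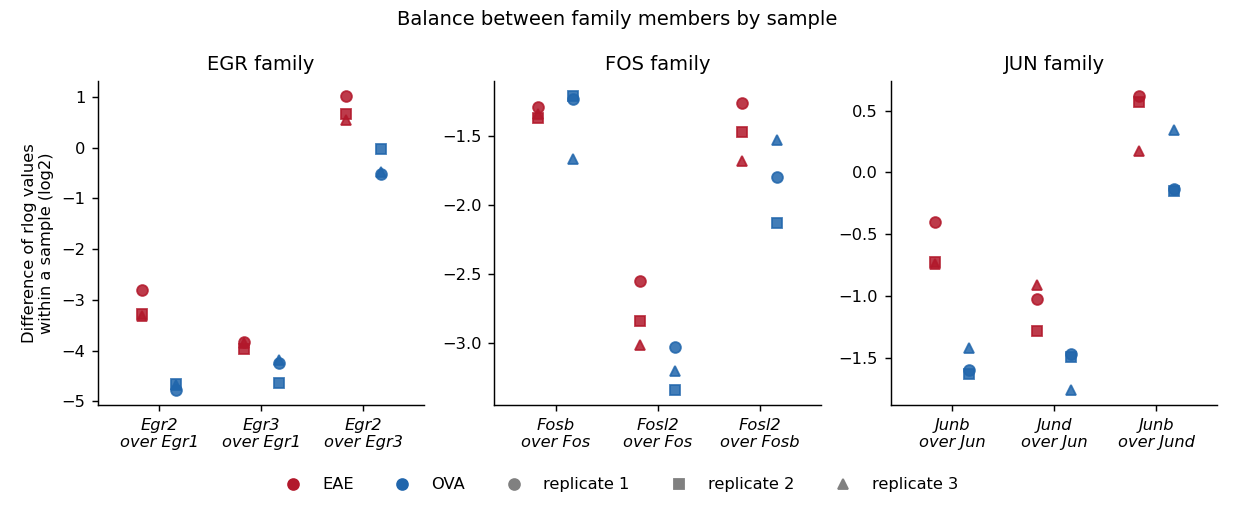
Difference between the rlog values of 2 genes of a family within each sample (log2 scale), for the 9 pairs of the EGR, FOS and JUN families, EAE left of OVA in each pair. Each pair is ordered so that its EAE mean is the higher one. Junb over Jun lies between -0.74 and -0.4 in EAE and between -1.63 and -1.42 in OVA, while Fosb over Fos overlaps between the groups.

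Among the FOS genes, whose proteins need a JUN partner to bind DNA, Fos (ENSMUSG00000021250.13, chromosome 12, 85473890 to 85477273) was the highest in level. Its rlog values were 14.15, 14.23 and 13.97 in EAE, against 13.92, 14.13 and 14.14 in OVA, and the groups overlapped throughout. Its mean rlog exceeded that of 99.3% of the tested genes. The difference was 0.05 ± 0.11 (SE; limma adjusted p = 0.862), with a 95% interval from -0.21 to 0.31.

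Fosb (ENSMUSG00000003545.3, chromosome 7, 19302696 to 19310051), which also encodes the long-lived truncated product deltaFosB, had rlog values of 12.86, 12.86 and 12.63 in EAE, against 12.69, 12.92 and 12.47 in OVA. The highest and the lowest value of all both came from OVA samples. The difference was 0.10 ± 0.13 (SE; limma adjusted p = 0.76). The table has 1 value per gene, so full-length and truncated transcripts were not analysed here.

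Fosl2 (ENSMUSG00000029135.10, chromosome 5, 32135801 to 32157842) encodes Fra-2, a FOS-related factor that lacks the strong activation domain of c-Fos. Its rlog values were 11.60, 11.39 and 10.96 in EAE, against 10.89, 10.79 and 10.94 in OVA. EAE replicates 1 and 2 stood above the narrow OVA range, and EAE replicate 3 stood at its upper edge. The difference was 0.44 ± 0.15 (SE; limma adjusted p = 0.211), and only 1 left-out sample made it pass. Without EAE replicate 3 it was 0.62 (limma adjusted p = 0.0435), and without EAE replicate 1, the highest, it was 0.30 (limma adjusted p = 0.565).

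Fosl2 relative to Fos, as the difference of rlog values within a sample, was -2.55, -2.84 and -3.01 in EAE and -3.03, -3.34 and -3.20 in OVA. The groups did not overlap, although the nearest samples, EAE replicate 3 and OVA replicate 1, nearly met. The exact two-sided permutation p was 0.1, the smallest possible.

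Among the JUN genes, whose products can form AP-1 alone or with FOS, Junb (ENSMUSG00000052837.6, chromosome 8, 84974484 to 84978718) had rlog values of 12.86, 12.50 and 12.29 in EAE, against 11.95, 11.60 and 11.89 in OVA. All EAE pools exceeded all OVA samples, by a gap of 0.34. The means were 12.55 ± 0.29 in EAE and 11.81 ± 0.18 in OVA (SD, n = 3 each), a difference of 0.74 ± 0.16 (SE; limma adjusted p = 0.0597) with a 95% interval from 0.37 to 1.1. Without OVA replicate 3 the difference was 0.78 and passed (limma adjusted p = 0.0376), as it did when each sample was weighted by its number of mice (0.79; limma adjusted p = 0.0408), whereas it did not pass without any other sample (limma adjusted p from 0.0509 to 0.19). JUNB is a weaker activator than c-JUN and can oppose it at some AP-1 sites.

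Jun (ENSMUSG00000052684.4, chromosome 4, 95049034 to 95052222) had rlog values of 13.26, 13.22 and 13.03 in EAE, against 13.54, 13.24 and 13.31 in OVA. EAE replicates 2 and 3 lay below all OVA samples and EAE replicate 1 lay among them. The difference was -0.19 ± 0.11 (SE; limma adjusted p = 0.441), with a 95% interval from -0.45 to 0.07.

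Jund (ENSMUSG00000071076.6, chromosome 8, 70698949 to 70700616), the JUN member that is expressed most constantly in resting cells, had rlog values of 12.24, 11.94 and 12.12 in EAE, against 12.07, 11.75 and 11.55 in OVA. OVA replicate 1 lay within the EAE range and the other OVA samples below it. The difference was 0.31 ± 0.14 (SE; limma adjusted p = 0.338).

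The differences of Junb and Jun had opposite signs, so the level of one relative to the other adds them up and restates the values above. Junb minus Jun was -0.4, -0.72 and -0.74 in the EAE pools, against -1.6, -1.63 and -1.42 in the OVA samples, again as differences of rlog values. The mean shift was 0.93, and that of Jund relative to Jun was 0.50, both without overlap between the groups (exact two-sided permutation p = 0.1 each, the smallest possible, and 0.15 after adjustment over the 9 pairs). Of the 9 pairs, 6 had groups that did not overlap, and the others were Fosb over Fos, Fosl2 over Fosb and Junb over Jund. Each pair was written in the order that made its EAE mean the higher one, so the common direction is by construction. The share of other gene pairs without overlap was not determined, while 22.8% of single tested genes had none. The pairs share genes, so they are not separate pieces of evidence.

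Ier2 (ENSMUSG00000053560.5, chromosome 8, 84661331 to 84662852), an early response gene whose product is nuclear, had rlog values of 10.22, 10.25 and 10.03 in EAE, against 9.82, 9.94 and 10.46 in OVA. The highest value was that of OVA replicate 3 and the lowest that of OVA replicate 1. The difference was 0.09 ± 0.16 (SE; limma adjusted p = 0.829), and with 1 sample left out it ranged between -0.04 without OVA replicate 1 and 0.29 without OVA replicate 3, never passing.

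Levels of different genes can be set side by side only per length. Subtracting the log2 of the annotated exonic length in kilobases gave 12.88 for Fos in EAE and 12.83 in OVA, the highest of the 10, and its range over the samples did not reach that of the next gene. Jun followed at 11.50 in EAE and 11.69 in OVA, and Jund at 11.36 in EAE and 11.05 in OVA. Junb stood at 11.35 in EAE and 10.61 in OVA, Egr1 at 10.21 in EAE and 10.43 in OVA, and Fosb at 10.14 in EAE and 10.05 in OVA. Neighbours in the order from Jun to Ier2 (9.56 in EAE and 9.47 in OVA) overlapped in their ranges over the 6 samples. Fosl2 (8.04 in EAE and 7.60 in OVA), Egr2 (7.48 in EAE and 6.13 in OVA) and Egr3 (6.36 in EAE and 6.10 in OVA) stood lowest, clear of Ier2, and among these 3 neighbours again overlapped. The order of the means was the same in both groups.

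The EAE pools were not alike in these genes. EAE replicate 3 had the lowest EAE value for 7 members and the highest for 0, while replicate 1 had the highest for 6 and replicate 2 for 4. The spread of the EAE pools was widest for Fosl2, at 0.64, and Junb, at 0.57. The summed level of 8 monocyte and macrophage markers was 16.20, 15.89 and 15.69 in the EAE pools, against 14.57, 14.77 and 15.43 in OVA. Of these 8 markers 5 were lowest of the EAE pools in replicate 3, among them Arg1, and 2, Gpnmb and Ms4a7, were highest there. Markers of other cells set this pool apart as well. Lowest there were 6 of 7 neutrophil and 4 of 5 ependymal markers. Highest there were 7 of 7 homeostatic microglia, 6 of 7 neuronal, 8 of 12 mature oligodendrocyte and 5 of 7 oligodendrocyte precursor markers. The part of any of these cells in the spread was not tested. Among the OVA samples no single one was lowest for most members: replicate 2 was lowest for 5, replicate 1 for 3 and replicate 3 for 2.

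Cells other than oligodendrocytes, whose markers were present, may contribute to the values of the members, and markers of several of them differed between the groups. In bulk samples fewer cells of a type and less RNA per cell cannot be told apart. Over all tested genes 1.72% were called higher and 0.666% lower. Of the 8 monocyte and macrophage markers, whose sums are given above, 3 passed as higher. The 8 T cell markers summed to 8.93 to 9.15 in EAE and 8.24 to 8.54 in OVA, with 5 called higher. The 8 astrocyte markers summed to 15.73 to 16.02 in EAE and 16.54 to 16.88 in OVA, with 5 lower and 1 higher. The 7 homeostatic microglia markers summed to 14.24 to 14.69 in EAE and 14.67 to 14.99 in OVA, with 2 lower. The other lists had no call, apart from 1 oligodendrocyte precursor marker that was lower. Of all tested genes 49.3% had a difference above 0. Differences lay below 0 for 7 of 7 endothelial markers (median -0.56), 7 of 7 pericyte and smooth muscle markers (median -0.37) and 5 of 7 neutrophil markers (median -0.81). The neutrophil median rested on OVA replicate 3 and was 0.05 without that sample. Differences lay above 0 for 5 of 5 ependymal markers (median 0.50) and 12 of 12 mature oligodendrocyte markers (median 0.25). The same held for 5 of 7 oligodendrocyte precursor markers (median 0.30) and 5 of 7 neuronal markers (median 0.08). The part of these cells in the differences of Egr2 and Junb was not tested.

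Reads of overlapping genes are a further limit, since the kit keeps the strand but the sources used here do not state whether the counting used it. In the annotation Junb overlaps the antioxidant gene Prdx2 on the opposite strand, which had a mean of 11.28 in EAE and 11.23 in OVA. Jun and Jund overlap the antisense genes Junos (6.16 in EAE and 5.67 in OVA) and Gm11175 (5.24 in EAE and 5.09 in OVA). Egr2 overlaps no other annotated gene.

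Of 36 tested genes among 37 other early response genes, 3 rose, 0 fell and 33 did not pass, with a median difference of 0.16. Over all tested genes 1.72% rose and 0.666% fell. The 3 that rose were Nfil3, a leucine zipper repressor, Ptgs2, the inducible cyclooxygenase, and Plk3, a stress-responsive polo-like kinase. Nfil3 had 10.62, 10.10 and 9.77 in EAE, against 8.88, 8.99 and 9.17 in OVA, a 2.21-fold rise (limma adjusted p = 0.0341). Ptgs2 had 12.54, 12.59 and 11.86 in EAE, against 11.11, 11.28 and 11.42 in OVA, 2.09-fold (limma adjusted p = 0.037), and Plk3 rose 1.45-fold (limma adjusted p = 0.0441). In each of the 3 all EAE pools exceeded all OVA samples. The count was 0 when replicate 1 or 2 of either group was left out, and 7 when replicate 3 of either group was, with 1 gene lower in the case of OVA. Plk3 also missed the threshold without EAE replicate 3 (limma adjusted p = 0.0604), with no filter on low values (0.0647), with no intensity trend (0.0547) and with equal column medians (0.0554). With array quality weights 19 of the 36 were called higher and 4 lower.

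**Figure D4:**
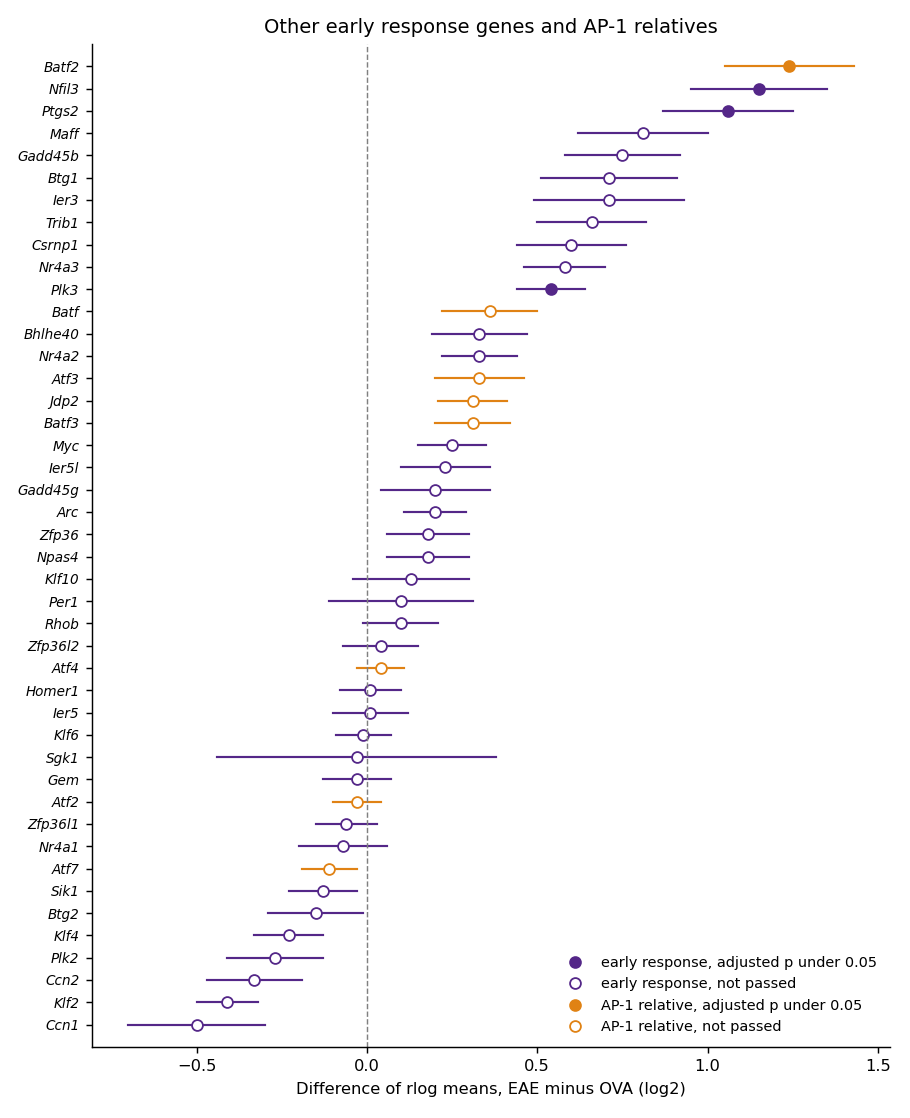
Difference of the group means (EAE minus OVA, log2 scale) with its standard error for 36 other early response genes (purple) and 8 AP-1 relatives (orange). Filled points passed an adjusted p of 0.05. Batf2, Nfil3, Ptgs2 and Plk3 are filled, and genes lie on both sides of 0.

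The early response genes that did not pass lay on both sides of 0. Of all 36 tested, 24 lay above 0 and 12 below, where 49.3% of all tested genes lay above. An unadjusted p under 0.05 was found for 14 (limma), against 16.3% of all tested genes. All EAE pools lay above all OVA samples for 12 and below them for 1, where 12.1% and 10.8% of all tested genes did. The list was chosen with earlier results of these data known. Nr4a1, the orphan nuclear receptor that often accompanies Fos and Egr1, had 12.93, 12.87 and 12.59 in EAE, against 12.77, 12.76 and 13.07 in OVA. It differed by -0.07, while its relative Nr4a3 differed by 0.58 (limma adjusted p = 0.0544) without overlap between the groups. Klf2, a zinc finger factor of endothelium and resting T cells, differed by -0.41 (limma adjusted p = 0.0598), with all EAE pools below all OVA samples. The 7 endothelial markers summed to 15.39 to 15.96 in EAE and 15.88 to 16.57 in OVA, and their part in the Klf2 value was not tested. The activity marker Arc differed by 0.20 and neuronal Npas4 by 0.18 (limma adjusted p = 0.356 and 0.502). Nr4a1, Nr4a3, Klf2, Arc and Npas4 were named after their values were seen. Egr4 was below the filter at values near 0 in every sample.

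Of 9 further AP-1 family leucine zipper genes 8 were tested. Batf2 rose, the other 7 did not pass, and the median difference was 0.31. Over all tested genes the share that rose was 1.72%. Batf2, an interferon-induced partner of JUN proteins, had 7.45, 7.5 and 6.87 in EAE, against 5.84, 6.07 and 6.19 in OVA, a 2.37-fold rise (limma adjusted p = 0.0215). It did not pass once replicate 1 or 2 of either group was left out (limma adjusted p from 0.0714 to 0.104). Of the 8 tested genes 5 had an unadjusted p under 0.05, against 16.3% of all tested genes. Fosl1, which encodes Fra-1, was not tested, with values between 2.83 and 3.04 in all samples.

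Upstream of these genes no call was made. Of 17 MAP kinases and their activating kinases limma called 0, with 1 at an unadjusted p under 0.05, Map2k1, which encodes MEK1 (difference 0.22, limma adjusted p = 0.165). Map2k6, an activator of p38, had the next smallest p (difference -0.26, limma adjusted p = 0.341). Of 13 genes of serum response factor, its cofactors and the CREB group limma called 0. Against 16.3% of all tested genes, 3 of them had an unadjusted p under 0.05. Among these Mrtfb, an actin-regulated cofactor of serum response factor, differed by -0.33 (limma adjusted p = 0.126) and Creb1 by -0.18 (limma adjusted p = 0.262). The third, Crem, a relative of CREB, lay the other way (0.25, limma adjusted p = 0.27). The median differences of both lists were close to 0, at -0.06 and -0.04. RNA levels of these genes do not report the phosphorylation by which their proteins are regulated.

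Of 14 feedback inhibitors of MAP kinases, among them the DUSP phosphatases, limma called 0. An unadjusted p under 0.05 was found for 5 of them, against 16.3% of all tested genes. Dusp4 differed by 0.42 and Dusp10, which acts on JNK and p38, by 0.46 (limma adjusted p = 0.0597 and 0.0644), each with all EAE pools above all OVA samples. Spred2, an inhibitor of RAF activation, lay the other way, at -0.36 (limma adjusted p = 0.083), as did Dusp6, an ERK phosphatase, at -0.21 (limma adjusted p = 0.224). All EAE pools lay above all OVA samples for 3 of the 14 and below them for 3, where 12.1% and 10.8% of all tested genes did. The median difference was 0.07. Spred2, Dusp6 and Crem were named after their values were seen. The EGR corepressors Nab1 (difference 0.02, limma adjusted p = 0.947) and Nab2 overlapped between the groups. Nab2, which EGR proteins themselves induce, had 8.72, 8.87 and 8.75 in EAE, against 8.47, 8.35 and 8.80 in OVA (difference 0.24, limma adjusted p = 0.406).

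Of 19 known AP-1 target genes 17 were tested, of which 5 rose and 12 did not pass, with a median difference of 0.70. The share that rose over all tested genes was 1.72%. The list was chosen with earlier results of these data known, so its count beside that share is a description and not a test. Differences lay above 0 for 14 and below it for 3, where 49.3% of all tested genes lay above. The 3 were Mmp13 (-0.51), Mmp9 (-0.19) and Ccnd1 (-0.03), named after their values were seen. Among the 5, the largest differences were those of Spp1, the secreted phosphoprotein osteopontin, Tnf, the cytokine, and Ccl2, a chemokine for monocytes. Spp1 had 12.65, 11.32 and 11.78 in EAE, against 9.40, 8.78 and 10.18 in OVA, a 5.51-fold rise (limma adjusted p = 0.0302). Tnf rose 2.68-fold and Ccl2 2.06-fold (limma adjusted p = 0.0115 and 0.017), and the remaining 2 were the proteases Plau, 1.89-fold, and Mmp14, 1.62-fold (limma adjusted p = 0.0234 and 0.0246). Mmp12, a macrophage elastase named after its values were seen, differed by 2.13 without passing (limma adjusted p = 0.0508). Leaving out replicate 1 gave 2 calls when it was the EAE pool and 1 when it was the OVA sample. Leaving out replicate 2 of either group gave 0, and leaving out OVA replicate 3 gave 10. Without EAE replicate 3 the count was again 5, but Spp1 and Plau did not pass. With array quality weights it was 13. Many of these genes are also expressed by monocytes and macrophages, whose summed markers were higher in EAE, and the part of those cells was not tested.

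Genes whose profile over the 6 samples was most like that of Egr2 were also sought, by the root mean square distance between profiles centred on each gene's mean, over tested protein-coding genes. The nearest to Egr2 were Ikbke, an inducible kinase of the interferon pathway (distance 0.085), Gfap, the intermediate filament of reactive astrocytes (0.096), and Ccl22, a chemokine (0.098). Gfap had 12.80, 12.83 and 12.50 in EAE, against 11.35, 11.47 and 11.26 in OVA. The nearest to Junb were Gla, Pik3r5 and Runx1, at distances of 0.029, 0.035 and 0.062. For Fos they were Phtf1, Utp3 and Mcph1 (0.024 to 0.03), for Egr1 Zbtb2, Nexmif and Rgsl1 (0.023 to 0.038) and for Jun Oscar, Pitpnm2 and Sdsl (0.021 to 0.028). No other member was among the 3 nearest genes of any of the 10, and flat profiles have near neighbours by construction. The centred profile of Egr2 consists mostly of its difference between the groups. Genes with a group difference of similar size and direction, such as Ikbke and Gfap, therefore lie near Egr2 by construction. Shared regulation of Egr2 or Junb with their nearest genes was not tested.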

How the data were processed

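Messenger RNA of O4-captured brain cells was sequenced from strand-keeping Illumina TruSeq libraries, per the labels' protocols. Tools listed in the submitters' processing notes, with no roles, are STAR 2.6.1c, DESeq2 1.24.0, Subread 1.6.1, cutadapt 1.18 and bcl2fastq 2.17, and the build is GRCm38. The deposited table holds log2-scale values, by its name the regularised logarithm of scaled counts made by the authors. This shrinks low genes towards their own mean and understates their differences. The sources used here do not state whether the transformation used the groups.

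Identifiers were matched to GENCODE M21 (55117 of 55298), and the highest-mean identifier was kept per symbol. Genes with a mean rlog of at least 3 were tested with limma 3.58.1 in R 4.3.3, with an intensity trend, two-sided. Each sample holds different mice, and litters or days are not given in the labels. The members and lists were chosen with earlier results of these data known. Genes other than members were named where they were past the threshold with the 3 largest differences of a list, or otherwise had its 2 smallest p, or were nearest in profile; profiles were planned for Fos, Egr1 and Jun, and those of Egr2 and Junb were added after their values were seen.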

Additional observations from a re-analysis of the deposited data

How the results depend on the processing

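Egr2 kept its direction under all 13 alternatives, with differences between 1.25 and 1.48, and missed the threshold under 2 of them. The number of members called higher, 1 of 10, ranged from 0 to 2 over the samples left out in turn, was 2 with weights by number of mice and 5 with array quality weights, and kept its value under the other alternatives. The number called lower was 0 under every alternative. The members that array weights added were Egr3, Fosl2, Junb and Jund. Those weights gave OVA replicate 2 a weight of 8.85, against 0.222 to 1.55 for the other 5 samples, and their estimation did not converge. Over all genes they called 2858 higher and 2233 lower, against 312 and 121. The counts over all genes ranged from 24 to 849 higher and from 1 to 346 lower when single samples were left out. The median difference of the members, 0.18, lay between 0.13 and 0.24 over the samples left out and was 0.28 with array quality weights. Small differences changed sign without being called: Fos was -0.0044 without EAE replicate 2 and -0.02 without OVA replicate 1, Ier2 was -0.04 without OVA replicate 1, and Fosb was -0.02 without OVA replicate 3 and -0.1 with array quality weights. Over the samples left out, Fos reached 0.13, Fosb 0.21 and Ier2 0.29 at the highest. The cause of these changes was not tested. No paired analysis was possible because the replicate numbers follow the order of deposit and link no EAE sample to an OVA sample. With 3 samples a group and no counts, small differences of the low genes cannot be resolved.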

Other observations

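Of 12 heat shock genes tested, which cells also switch on under stress, 1 fell in EAE and 11 did not pass. The share that fell over all tested genes was 0.666%. All 12 differences lay below 0, where 49.3% of all tested genes lay above it. The median of the 12 was -0.14, against -0.002 over all tested genes. Hspb1, a small heat shock chaperone, had 10.36, 10.64 and 10.36 in EAE, against 11.04, 11.18 and 11.10 in OVA, a difference of -0.65 (limma adjusted p = 0.0204). It missed the threshold without any single sample other than OVA replicate 3 (limma adjusted p from 0.0513 to 0.0963). The inducible Hspa1a, named after its values were seen, had 11.50, 11.67 and 11.40 in EAE, against 12.78, 11.99 and 12.45 in OVA (difference -0.88, limma adjusted p = 0.0601). Its near-identical neighbour Hspa1b differed by -0.86 (limma adjusted p = 0.0747), and how reads shared by the 2 genes were counted is not stated. All EAE pools lay below all OVA samples for 6 of the 12 genes, where 10.8% of all tested genes showed that pattern, while the abundant constitutive Hspa8 differed by -0.01. Fos, measured in the same samples, overlapped between the groups. The cause of the heat shock differences, and any link of these genes to Fos, was not tested.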
